A study of Mus musculus with 6 samples.

Results

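The chemokine ligand genes of a mouse marrow culture were examined here. Members were the gene symbols made of Ccl or Cxcl and a number, with a letter allowed after Ccl numbers, plus Xcl1 and Cx3cl1. 39 of the 24062 symbols in each table were members. Bone marrow from femur and tibia of C57BL/6J mice was grown with GM-CSF at 20 ng/ml, a cytokine that drives marrow precursors towards dendritic cells and macrophages, and fresh cytokine was given on days 3, 6 and 10. The low tension group (n = 3 libraries) grew at 2 kPa and the high tension group (n = 3) at 50 kPa, and strain, cytokine and feeding were shared by both. Library titles name dendritic cells, but the labels name no sort, the sources used here give no age of the mice, and nothing says that replicates came from separate animals or cultures. P-values therefore measure only the spread between these libraries, which may be technical.

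Chemokines are small secreted proteins that guide leukocytes along concentration gradients by binding G protein-coupled receptors. CC and CXC names describe the spacing of the first cysteines, and most inflammatory ligands lie in gene clusters whose members share receptors. Dendritic cells and macrophages make many of them: some are induced by NF-kB or interferon signalling, and others, such as Ccl17 and Ccl22, mark activated or mature dendritic cells. Levels are CPM, that is counts per M after the library sizes were scaled with TMM factors. Log2 fold changes are 50 kPa over 2 kPa with standard errors, and a gene was called at a Benjamini-Hochberg adjusted p under 0.05 in edgeR's quasi-likelihood test over all 13155 genes tested.

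Upstream sequences are shown for the Cxcl1, Cxcl2 and Cxcl3 genes, whose levels follow in the results, because their windows hold an identical motif match, and for Cxcl10, which has the highest ratio of highest to lowest library at 2 kPa of the 11 ligands with a mean above 100 CPM. Sequences are RefSeq's on GRCm38.p6, in the direction of transcription, and end at the last base before the start site. Capitals mark matches, on either strand, to the kappaB motif bound by NF-kB or to the core of the interferon-stimulated response element (ISRE), 2 runs of GAAA with 2 bases of any kind between them.
Cxcl1, chr5:90891095-90891244, plus strand: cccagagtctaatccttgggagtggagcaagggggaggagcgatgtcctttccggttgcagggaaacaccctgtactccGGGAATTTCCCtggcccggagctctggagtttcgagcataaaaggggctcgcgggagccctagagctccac
Cxcl2, chr5:90903749-90903898, plus strand: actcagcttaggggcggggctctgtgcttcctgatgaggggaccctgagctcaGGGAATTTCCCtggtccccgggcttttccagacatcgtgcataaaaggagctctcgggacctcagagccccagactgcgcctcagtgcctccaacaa
Cxcl3, chr5:90785951-90786100, plus strand: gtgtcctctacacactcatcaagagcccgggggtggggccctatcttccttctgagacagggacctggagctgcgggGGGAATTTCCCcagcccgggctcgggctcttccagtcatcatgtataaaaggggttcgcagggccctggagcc
Cxcl10, chr5:92348890-92349139, minus strand: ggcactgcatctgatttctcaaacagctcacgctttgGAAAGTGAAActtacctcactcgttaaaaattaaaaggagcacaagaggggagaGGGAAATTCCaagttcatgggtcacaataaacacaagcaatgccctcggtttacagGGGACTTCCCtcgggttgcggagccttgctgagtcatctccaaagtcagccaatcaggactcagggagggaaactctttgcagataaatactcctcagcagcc
In Cxcl1, Cxcl2 and Cxcl3 the match GGGAATTTCC starts 71, 97 and 73 bases before the start site, and an overlapping match on the other strand, shifted by 1 base, completes the 11 capitals. GGGAATTTCC or its complement is found in 0.0852% of the 32851 windows of 250 bases in the table, and among the 27 ligands with an entry in these 3 only. It was picked as the most common kappaB match of those ligands, so the contrast follows in part from that choice. Cxcl5 had no entry and was not searched. Of 27 ligands with an entry, 6 had a kappaB match (Cxcl1, Cxcl2, Cxcl3, Cxcl10, Ccl9 and Ccl20), against 3.9% of all windows and 4.46% of genes. The ISRE core was present in 3 (Cxcl10, Ccl19 and Cxcl14), against 2.98% of windows and 3.46% of genes. These matches describe the sequence and were not tested as binding sites.

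Depth was 33.8 M to 36.3 M counts a library. On the first principal component (65.3% of the variance of log2(CPM + 1)), the low tension libraries scored -5.67, -40.1 and -41.3 and the high tension ones 39.8, 43.8 and 3.43, so low tension replicate 1 and high tension replicate 3 sat in the middle. High tension replicates 1 and 2 were the most alike pair: their chi-square divided by its degrees of freedom was 6.71, where other replicate pairs had 126 to 233. They differed by more than sampling noise and were kept apart, and results with them summed are given below. No marker of the 10 listed for dendritic cells of GM-CSF cultures was at 0 in all libraries, and their summed level was 5054 to 10650 CPM at 2 kPa and 13335 to 20661 CPM at 50 kPa. That sum was set mostly by Cd74, H2-Ab1, H2-Eb1 and Itgax, and 0 of the 10 were called. Flt3, Zbtb46 and Dpp4 had negative log2 changes (-1.39, -0.36 and -1.41), and the others had positive ones. The 11 macrophage markers summed to 2024 to 4020 and 5236 to 6266 CPM. In such bulk samples, fewer cells of a type and less RNA per cell cannot be told apart.

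Chemokine transcripts of the 39 genes took 0.983%, 0.984% and 1.38% of all counts at 2 kPa and 0.949%, 0.924% and 1.09% at 50 kPa, so the ranges of the 2 groups overlapped. 22 ligands had a mean above 1 CPM over the 6 libraries, and 17 of these were above it in every library. A level of 1 CPM is 32.1 to 41.7 counts per library. 24 ligands passed the filter on low counts and were tested, and 15 were not, of which 8 had no count in any library. Of the 24, edgeR called 1 lower, against 1.98% of all tested genes, and 0 higher, against 1.47%. The called gene was Ccl24, which lies below 1 CPM and passed the filter only through the 2 kPa group. Over all genes, the 454 calls dropped to between 0 and 3 when low tension replicate 2 or 3 or high tension replicate 1 or 2 was left out, and to 0 with high tension replicates 1 and 2 summed. At an unadjusted p under 0.05 edgeR gave 9 ligands, against 27.8% of tested genes in either direction. All 9 were lower, against 14.8% of tested genes, and 0 were higher. That count rested on single libraries: leaving out high tension replicate 3 made it 14 lower (16.1% of genes), and leaving out high tension replicate 1 or 2 made it 3 (8.31% in each fit). Of the low tension libraries, omitting replicate 1 gave 7 lower (15.5%), omitting replicate 2 gave 4 (10.9%), and omitting replicate 3 gave 4 lower (17.5%) and 5 higher (13.8%). DESeq2 called 7 lower, against 9.51%, and 0 higher, against 8.52%. Groups did not overlap in 4 ligands that were lower at 50 kPa, against 16.9% of tested genes, and in 2 that were higher, against 17.2%. The count of lower ligands lay close to its background and that of higher ones below it. The median log2 fold change of the 24 was -0.59, beside -0.028 over all tested genes, and 16 of the 24 values were negative, against 53.2% of tested genes. With 1 library left out the ligand median ran from -0.33 (without low tension replicate 3) to -0.87 (without high tension replicate 3), with 14 and 18 negative values, and it was -0.38 without high tension replicate 2.

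**Figure D1:**
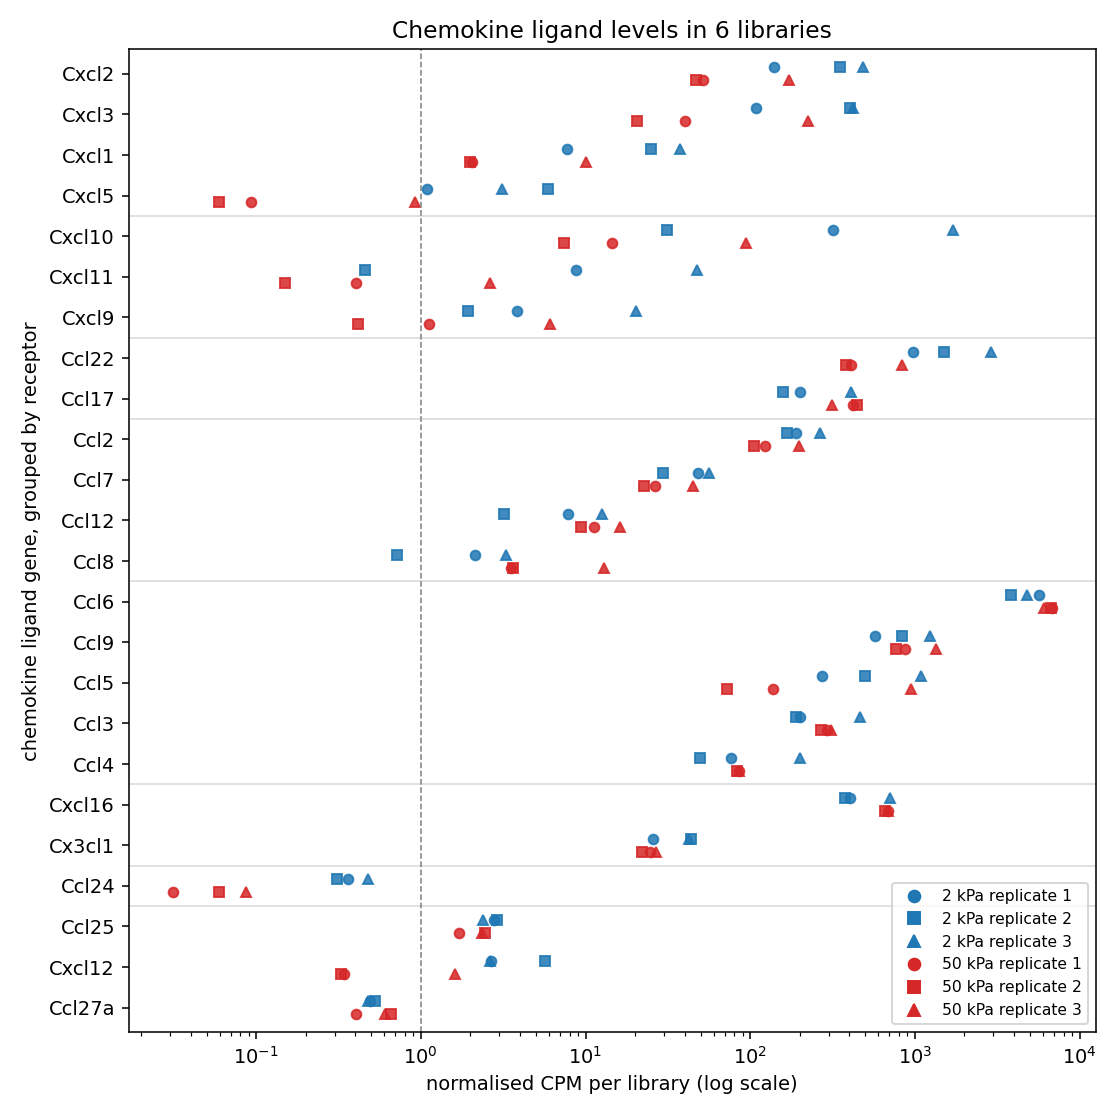
Normalised CPM (log axis) of the 24 tested chemokine ligands in each library, blue for 2 kPa and red for 50 kPa, with symbols for replicates and a dashed line at 1 CPM. Ccl6 is highest in every library, Cxcl10 spans 7.40 to 1692 CPM, and Ccl24 lies below the line in all 6 libraries.

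The ligands varied more between replicates than most genes. At 2 kPa the highest library exceeded the lowest by at least 4-fold in 8 of the 22 ligands above 1 CPM, against 2.8% of the 11882 tested genes above that level. The 8 were Cxcl1, Cxcl5, Cxcl9, Cxcl10, Cxcl11, Ccl4, Ccl5 and Ccl8. At 50 kPa it was also 8 (Cxcl1, Cxcl3, Cxcl5, Cxcl9, Cxcl10, Cxcl11, Cxcl12 and Ccl5), against 1.91%. The median ratio of highest to lowest was 3.21 at 2 kPa and 2.09 at 50 kPa, beside 1.36 and 1.18 for those genes. Low tension replicate 3 was the highest 2 kPa library for 17 of the 22 ligands, against 34.2% of those genes, and high tension replicate 3 the highest 50 kPa library for 18, against 42.2%.

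The neutrophil attractants that bind CXCR2 (Cxcl1, Cxcl2, Cxcl3 and Cxcl5) all had lower means at 50 kPa, and none was called. Cxcl2, also known as MIP-2, stood at 140, 349 and 483 CPM in low tension replicates 1, 2 and 3 and at 51.5, 46.7 and 172 CPM in the high tension ones. High tension replicate 3 exceeded low tension replicate 1, so the groups overlapped, with a log2 change of -1.85 ± 0.67 (edgeR adjusted p = 0.142). Cxcl3 was at 108, 406 and 418 CPM at 2 kPa and at 40.2, 20.4 and 224 CPM at 50 kPa (-1.71 ± 0.97, edgeR adjusted p = 0.293). Its high tension replicate 3 again lay within the range of the 2 kPa libraries. Cxcl1, known as KC, had 7.76, 25.1 and 37.4 CPM against 2.05, 2.00 and 10.1 CPM (-2.31 ± 0.84, edgeR adjusted p = 0.143). Cxcl5, the least abundant of the 4 also per length, had 1.09, 5.92 and 3.12 CPM against 0.0933, 0.0597 and 0.926 CPM (-3.21 ± 1.05, edgeR adjusted p = 0.12). Cxcl5 was the only 1 of the 4 whose groups did not overlap. It reached the filter's minimum count of 10 in every 2 kPa library, but at 50 kPa had 3, 2 and 32 counts. DESeq2 called Cxcl1, Cxcl2 and Cxcl5 lower (DESeq2 adjusted p = 0.0179, 0.0208 and 0.0141), and did not call Cxcl3 (DESeq2 adjusted p = 0.246). Without high tension replicate 3 the log2 changes of Cxcl1, Cxcl2, Cxcl3 and Cxcl5 were -3.52, -2.72, -3.35 and -5.40, with edgeR adjusted p-values from 0.0569 to 0.0676. The smallest changes with 1 library left out were -1.80, -1.44, -1.22 and -2.52.

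The receptor gene Cxcr2, carried mainly by neutrophils, stood at 45.9, 52.3 and 25.4 CPM at 2 kPa and at 15.4, 19.3 and 20.3 CPM at 50 kPa (-1.17 ± 0.28, edgeR adjusted p = 0.0694). Its groups did not overlap. The 11 neutrophil markers summed to 3839 to 7472 CPM at 2 kPa and to 855 to 1631 CPM at 50 kPa, and 8 of the 11 were called lower, against 1.98% of all tested genes. That count was 0 without low tension replicate 2 or 3 or high tension replicate 1 or 2, and with high tension replicates 1 and 2 summed, and it was 2 with the filter of 5 CPM in 3 libraries. None was at 0 in all libraries, and their part in the ligand values was not tested.

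The 2 ligands of CCR4, the receptor of regulatory and type 2 helper T cells, differed in direction. Ccl22 (chromosome 8, 94745590 to 94751699, plus strand, GENCODE vM21 on GRCm38), also called MDC, stood at 974, 1506 and 2898 CPM at 2 kPa and at 407, 383 and 840 CPM at 50 kPa. Every 50 kPa library lay below every 2 kPa one, with a log2 change of -1.72 ± 0.50 (edgeR adjusted p = 0.0985, DESeq2 adjusted p = 0.00471). This was the smallest edgeR adjusted p of the 22 ligands above 1 CPM. Ccl17 (chromosome 8, 94810453 to 94812036, plus strand), also called TARC, stood at 201, 159 and 408 CPM at 2 kPa and at 420, 445 and 312 CPM at 50 kPa (0.62 ± 0.37, edgeR adjusted p = 0.311). High tension replicate 3 fell below low tension replicate 3, so its groups overlapped. Within a library, the ratio of Ccl22 to Ccl17 counts was 4.85, 9.49 and 7.11 at 2 kPa and 0.968, 0.859 and 2.69 at 50 kPa. The ranges did not overlap, and the mean log2 ratio differed by -2.40 between 50 and 2 kPa (2-sided exact permutation p = 0.1, the lowest value possible with 3 and 3 libraries; adjusted p = 0.25 over 15 pairs of ligands). Being taken within a library, the ratio does not depend on the scaling. Cx3cl1 lies between these genes, and its levels follow with the membrane-anchored ligands.

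Ccr7, the receptor that takes mature dendritic cells to lymph nodes, stood at 316, 538 and 579 CPM at 2 kPa and at 165, 141 and 309 CPM at 50 kPa (-1.22 ± 0.37, edgeR adjusted p = 0.106). With it, the 10 markers of mature migratory dendritic cells other than the ligands summed to 1442, 2054 and 2923 CPM against 803, 738 and 1297 CPM. EdgeR called none of the 10 and none was at 0 in all libraries. Of the full list of 12, which holds Ccl22 and Ccl17, DESeq2 called 7 lower, against 9.51% of tested genes. The replicate block called 4 lower, against 522 of the 13155 tested genes. Ccl22 itself was among the calls in both fits. The part of these markers in the Ccl22 values was not tested.

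**Figure D2:**
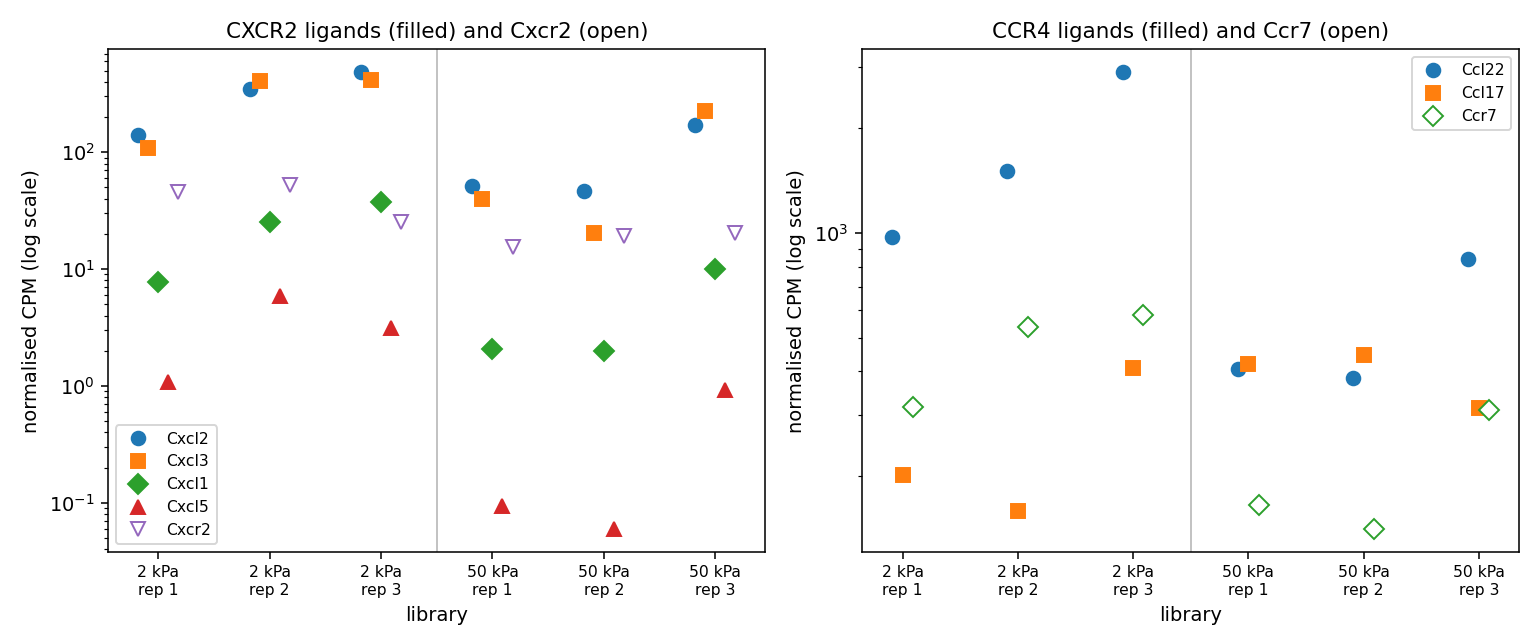
Normalised CPM (log axes) in each library for the CXCR2 ligands with Cxcr2 (left) and the CCR4 ligands with Ccr7 (right), filled for ligands and open for receptors. Ccl22 lies at or above 974 CPM in the 2 kPa libraries and at or below 840 CPM in the 50 kPa ones, while Ccl17 overlaps between them.

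The CXCR3 ligands Cxcl9, Cxcl10 and Cxcl11, interferon-induced attractants of activated T cells and NK cells, had lower means at 50 kPa and a wide spread between replicates, and none was called by edgeR. Cxcl10 stood at 318, 31.4 and 1692 CPM at 2 kPa and at 14.5, 7.40 and 94.4 CPM at 50 kPa. Low tension replicate 2 lay below high tension replicate 3. The log2 change was -4.13 ± 1.62 (edgeR adjusted p = 0.166; DESeq2 adjusted p = 0.0369), -2.17 when low tension replicate 3 was left out and -5.97 when high tension replicate 3 was. Cxcl11 had 8.77, 0.456 and 47.6 CPM against 0.404, 0.149 and 2.63 CPM (-4.14 ± 1.67, edgeR adjusted p = 0.173), with -2.10 and -6.09 in those 2 fits. It reached the filter's minimum count of 10 in every 2 kPa library, but at 50 kPa had 13, 5 and 91 counts. The annotation lists Cxcl11 as a polymorphic pseudogene, so its transcript need not give a protein in this strain. Cxcl9 had 3.86, 1.94 and 20.2 CPM against 1.12, 0.418 and 6.10 CPM (-1.75 ± 1.19, edgeR adjusted p = 0.367), and the same fits gave -0.18 and -3.49. In all 3 genes replicate 3 was the highest and replicate 2 the lowest library of each group.

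The 3 interferon-linked genes named by the smallest p of their list were ordered over the libraries as Cxcl10 was, in both groups. So were 6 of the 7 in the list, against 4.43% of all tested genes. The exception was Irf7, an interferon-induced regulator, with 154, 227 and 708 CPM at 2 kPa. The list was written as partners of Cxcl9 to Cxcl11 with earlier results of these data known, and the order was taken from Cxcl10. The contrast with all tested genes is therefore a description and not a test. Ifit1, an interferon-induced antiviral protein, stood at 182, 84.6 and 909 CPM at 2 kPa and at 27.6, 11.8 and 197 CPM at 50 kPa. Gbp2, an interferon-induced GTPase, was at 215, 116 and 1003 CPM and at 73.0, 63.1 and 259 CPM. Irf1, a transcription factor of the interferon response, was at 156, 113 and 462 CPM and at 80.7, 80.3 and 130.1 CPM. Of the 7 genes in this list 0 were called, all 7 had a negative log2 change, against 53.2% of tested genes, and the median was -1.76. At an unadjusted p under 0.05 edgeR gave 0 of them in either direction, against 27.8% of all tested genes. The part of interferon signalling in the ligand values was not tested.

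**Figure D3:**
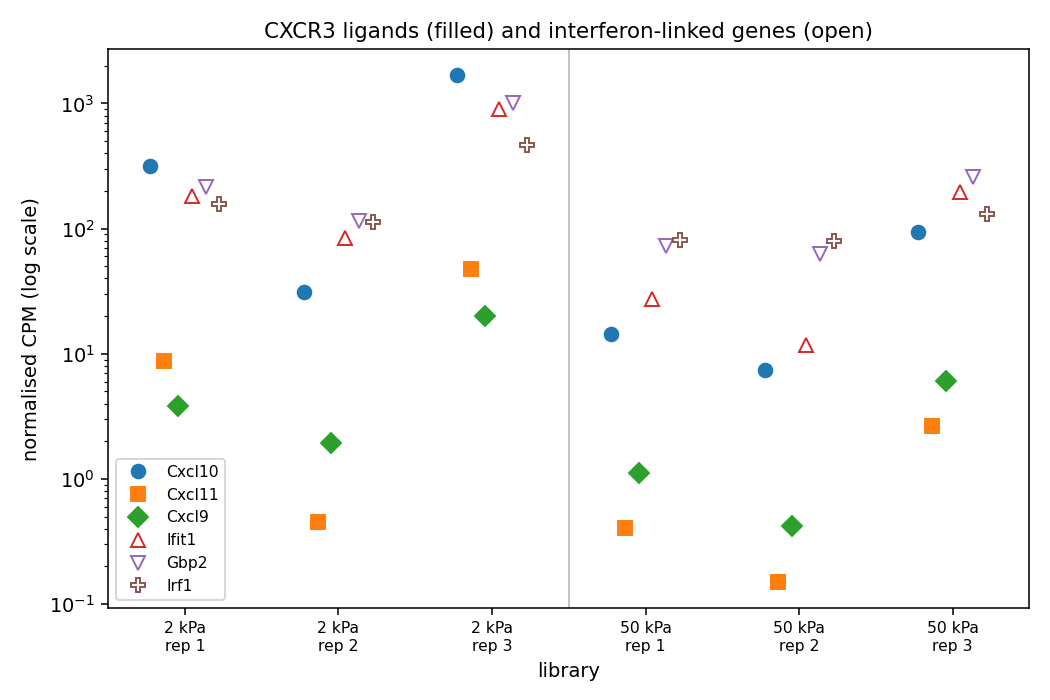
Normalised CPM (log axis) of the CXCR3 ligands (filled) and of 3 interferon-linked genes (open) in each library. In both groups replicate 3 is the highest library for all 6 genes, with Cxcl10 at 1692 CPM at 2 kPa and 94.4 CPM at 50 kPa.

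Ccl2, Ccl7 and Ccl12, which call monocytes through CCR2, split in sign, and none was called. Ccl2, known as MCP-1, stood at 190, 168 and 267 CPM at 2 kPa and at 123, 105 and 198 CPM at 50 kPa (-0.56 ± 0.29, edgeR adjusted p = 0.256). Ccl7 was at 48.5, 29.6 and 56.5 CPM against 26.5, 22.6 and 44.7 CPM (-0.52 ± 0.33, edgeR adjusted p = 0.342). In both genes the groups overlapped through high tension replicate 3. Ccl12 was at 7.84, 3.21 and 12.6 CPM against 11.3, 9.37 and 16.2 CPM (0.65 ± 0.48, edgeR adjusted p = 0.408). The count ratio of Ccl7 to its neighbour Ccl12 was 6.18, 9.17 and 4.49 at 2 kPa and 2.35, 2.41 and 2.76 at 50 kPa, without overlap (2-sided exact permutation p = 0.1; adjusted p = 0.25). The ratio of Ccl2 to Ccl7 was 3.91, 5.68 and 4.73 against 4.62, 4.63 and 4.42, which overlap. Ccl8, a CCR8 ligand in mice, was at 2.12, 0.72 and 3.30 CPM against 3.55, 3.61 and 12.9 CPM. Every high tension library was above every low tension one, and the log2 change was 1.72 ± 0.73 (edgeR adjusted p = 0.186), or 0.81 without high tension replicate 3 and 2.24 at the most with 1 library left out.

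The inflammatory CC ligands Ccl3, Ccl4, Ccl5, Ccl6 and Ccl9 held the most abundant chemokine transcript. Ccl6, a CCR1 ligand made by myeloid cells and raised by GM-CSF, had 5654, 3819 and 4788 CPM at 2 kPa and 6787, 6697 and 6066 CPM at 50 kPa. The groups did not overlap, with a log2 change of 0.46 ± 0.23 (edgeR adjusted p = 0.241). It took 61.3%, 44.9% and 32.1% of all chemokine ligand counts at 2 kPa and 67.9%, 69.6% and 53.2% at 50 kPa, which overlap. Per kb of exon, Ccl6 was at 2648 CPM at 2 kPa and 3630 CPM at 50 kPa, the highest of the ligands in both groups. Next per kb at 2 kPa were Ccl22 at 771, Ccl5 at 647 and Ccl17 at 497 CPM, and at 50 kPa Ccl17 at 764, Ccl5 at 403 and Ccl3 at 379 CPM. Apart from Ccl6, neighbours in these orders had overlapping ranges over replicates in each group. Ccl9, the neighbour of Ccl6 on chromosome 11, had 575, 832 and 1239 CPM against 875, 770.1 and 1339 CPM (0.17 ± 0.34, edgeR adjusted p = 0.757).

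Ccl5, or RANTES, differed more between replicates than between groups. It stood at 273, 497 and 1094 CPM at 2 kPa and at 138, 72.5 and 951 CPM at 50 kPa (-0.68 ± 1.01, edgeR adjusted p = 0.675). Leaving out low tension replicate 3 gave a log2 change of 0.0095, and leaving out high tension replicate 3 gave -2.56. Ccl3 and Ccl4, the macrophage inflammatory proteins MIP-1 alpha and beta, varied little among the 3 high tension libraries. Ccl3 was at 201, 190 and 464 CPM against 294, 269 and 309 CPM (0.029 ± 0.357, edgeR adjusted p = 0.964). Ccl4 was at 76.6, 49.3 and 202 CPM against 86.1, 82.8 and 85.5 CPM (-0.36 ± 0.49, edgeR adjusted p = 0.643), and its sign turned without low tension replicate 3 (0.43).

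Both ligands with a membrane anchor, which can act as adhesion molecules until shed, were expressed. Cxcl16, the partner of CXCR6 and a scavenger receptor, stood at 403, 375 and 710 CPM at 2 kPa and at 687, 655 and 688 CPM at 50 kPa (0.45 ± 0.26, edgeR adjusted p = 0.303). Low tension replicate 3 lay above all 50 kPa libraries. Cx3cl1, or fractalkine, was at 25.6, 44.0 and 42.5 CPM against 24.5, 21.9 and 26.7 CPM (-0.62 ± 0.22, edgeR adjusted p = 0.138), and was called without low tension replicate 1 (-0.83, edgeR adjusted p = 0.0442). Low tension replicate 1 was the library that overlapped with the 50 kPa ones.

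Ccl24, or eotaxin-2, an attractant of eosinophils through CCR3, was the single called ligand and fell at 50 kPa. It had 14, 13 and 16 counts at 2 kPa and 1, 2 and 3 counts at 50 kPa, that is 0.362, 0.312 and 0.481 CPM against 0.0311, 0.0597 and 0.0868 CPM. The log2 change was -2.61 ± 0.43 (edgeR adjusted p = 0.0394). Summed over libraries, 43 counts against 6 gave a ratio of 6.32 with a 95% exact interval of 2.68 to 18.2, which covers counting error only. The call was lost in each fit that left out 1 library (edgeR adjusted p from 0.0543 to 0.198), while the log2 change stayed between -2.31 and -2.97. It was also lost with high tension replicates 1 and 2 summed (0.17) and with no filter on low counts (0.0524). Eosinophil markers summed to 176 to 486 CPM at 2 kPa and 82.6 to 158 CPM at 50 kPa, with 0 of 5 called, and their part was not tested. The other eotaxin genes of the mouse table, Ccl11 and Ccl26, had 0 counts in all libraries.

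Among the homing chemokines, Cxcl12, the CXCR4 ligand that retains blood precursors in marrow, had 2.67, 5.66 and 2.64 CPM at 2 kPa and 0.342, 0.328 and 1.62 CPM at 50 kPa. The groups did not overlap, with a log2 change of -2.25 ± 0.70 (edgeR adjusted p = 0.11; DESeq2 adjusted p = 0.0121), or -3.43 without high tension replicate 3 (edgeR adjusted p = 0.0458). Stromal markers summed to 55.0 to 91.3 CPM at 2 kPa and 114 to 122 CPM at 50 kPa, a sum set mostly by the leptin receptor gene Lepr. Lepr was the 1 of 8 called (higher, against 1.47% of all tested genes), a call lost in each fit that left out 1 library. Pdgfra also had a positive log2 change and the others had negative ones, with a median of -1.59 over the 8. Lepr was chosen for mention after its values were seen. Col1a1, the collagen chain that defines this list, was at 0.854, 5.25 and 2.61 CPM against 0.591, 1.37 and 0.405 CPM. The part of stromal cells in the Cxcl12 values was not tested. Ccl25, a CCR9 ligand, was at 2.80, 2.90 and 2.37 CPM against 1.71, 2.45 and 2.34 CPM (-0.31 ± 0.22, edgeR adjusted p = 0.375).

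**Figure D4:**
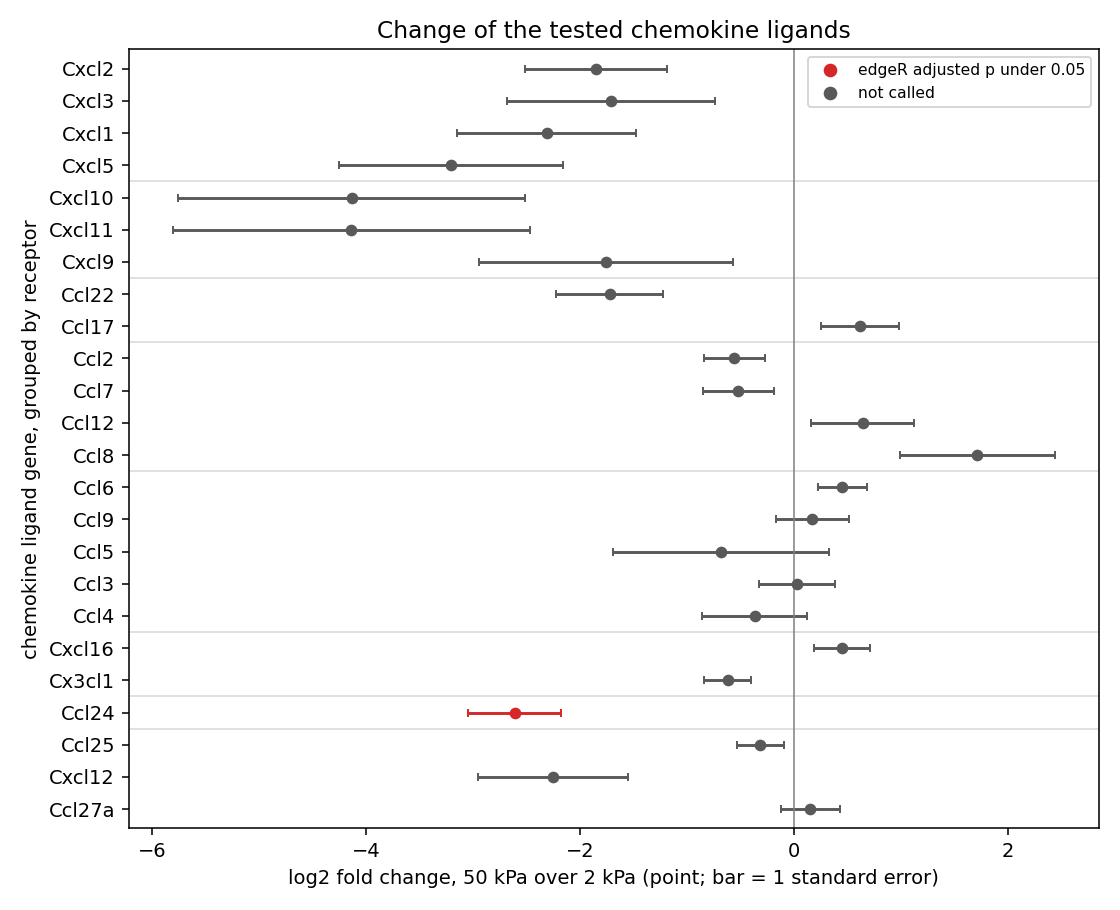
Log2 fold change (50 kPa over 2 kPa) of the 24 tested chemokine ligands, with bars of 1 standard error from edgeR. Only Ccl24, in red, passed the threshold, and the widest bars belong to Cxcl10 (1.62) and Cxcl11 (1.67).

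The other 16 ligands at or below 1 CPM were Ccl27a (0.404 to 0.657 CPM, tested, not called), 7 with some counts that were too few to test, and 8 with none. The 7 were Xcl1 (2 to 11 counts per library), Ccl1 (0 to 12), Cxcl14 (1 to 7), Ccl28 (0 to 4), Cxcl13 (0 to 3), Ccl20 (0 to 3) and Cxcl15 (0 to 1). The 8 were Ccl11, Ccl19, Ccl21a, Ccl21b, Ccl21c, Ccl26, Ccl27b and Cxcl17, where a count of 0 allows up to 0.072 to 0.0933 CPM per library (3 counts). The Ccl21 and Ccl27 copies are nearly identical, so their counts depend on how reads with several matches were treated. Ccl19 and the Ccl21 genes encode the ligands of CCR7, whose own transcript was at 141 to 579 CPM.

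Of 48 other genes of the chemokine system in the table, 41 were tested and 1 was called, against 3.45% of all tested genes in either direction. It was Ppbp, the platelet chemokine CXCL7, which fell at 50 kPa (54.0, 68.1 and 46.7 against 3.76, 3.82 and 10.9 CPM; -3.19 ± 0.47, edgeR adjusted p = 0.0353). The Ppbp call was lost without low tension replicate 2 (edgeR adjusted p = 0.0969), low tension replicate 3 (0.0546) or high tension replicate 1 or 2 (0.178 each), with high tension replicates 1 and 2 summed (0.156) and with the 5 CPM filter (0.0555). Its log2 change ran from -2.92 to -3.88, the latter without high tension replicate 3. Megakaryocyte markers, Ppbp and Pf4 among them, summed to 222 to 383 CPM and 76.6 to 243 CPM. Of the 8, 4 were called lower, Ppbp itself among them, against 1.98% of all tested genes. That count was 0 in the same 4 fits without 1 library and with the summed libraries. Gp9, another of the 4, passed the filter on low counts only through the 2 kPa group. Pf4 made up most of the summed level in each 50 kPa library. The part of these markers in the Ppbp values was not tested. Pf4, the platelet factor CXCL4, stood at 82.7, 186 and 113 CPM against 82.8, 62.5 and 204 CPM (-0.13 ± 0.51, edgeR adjusted p = 0.883).

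Among 15 receptors tested 0 were called, while at an unadjusted p under 0.05 edgeR gave 8 lower and 2 higher. Of all tested genes, 27.8% were under that p in either direction and 14.8% were lower. Cxcr4, the CXCL12 receptor, was at 77.9, 108 and 67.9 CPM at 2 kPa and at 47.1, 45.2 and 55.1 CPM at 50 kPa (-0.79 ± 0.19, edgeR adjusted p = 0.0724). Ccr6, the CCL20 receptor, was at 2.15, 4.51 and 2.91 CPM against 0.653, 1.13 and 1.45 CPM (-1.56 ± 0.40, edgeR adjusted p = 0.0803). In both the groups did not overlap. Of 2 atypical receptors tested, Ackr1, a scavenging receptor, had 0.673, 1.78 and 0.751 CPM against 0, 0.0299 and 0.231 CPM (edgeR adjusted p = 0.0808). It passed the filter on low counts only through the 2 kPa group, where it was high. The proteases and proteoglycans that cut or present chemokines gave 0 calls among 8, with 2 lower and 1 higher at an unadjusted p under 0.05, against 27.8% of all tested genes in either direction. Dpp4, a peptidase that trims and inactivates several chemokines, was at 29.0, 35.7 and 41.6 CPM against 10.3, 10.5 and 19.1 CPM (-1.41 ± 0.28, edgeR adjusted p = 0.0527). Mmp12, a macrophage elastase that cleaves chemokines, was at 4879, 2231 and 4258 CPM against 10164, 10100 and 6897 CPM (1.26 ± 0.36, edgeR adjusted p = 0.0962).

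The 6 genes of NF-kB feedback had 0 calls and negative log2 changes throughout (median -0.47), against 53.2% of tested genes negative. At an unadjusted p under 0.05 there was 1, against 27.8% of tested genes. That gene was Nfkbiz, an inducible nuclear partner of NF-kB, at 49.2, 82.7 and 144 CPM at 2 kPa and at 27.6, 26.0 and 46.0 CPM at 50 kPa (-1.47 ± 0.43, edgeR adjusted p = 0.0983). Its groups did not overlap. Tnfaip3, which encodes the feedback inhibitor A20, was at 154, 173 and 498 CPM against 136, 139 and 180 CPM (-0.86 ± 0.47, edgeR adjusted p = 0.276), with overlap.

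Of the tested ligands, Ccl25, Ccl27a, Cxcl10, Cxcl11 and Cxcl16 overlap exons of an opposite-strand gene. Their partners were at 76.5 ± 2.21 and 64.5 ± 2.33 CPM (SD, n = 3, at 2 and 50 kPa) for Elavl1 with Ccl25, 47.8 ± 20.1 and 65.7 ± 12.5 CPM for Il11ra1 with Ccl27a, and 34.1 ± 10.9 and 26.5 ± 9.25 CPM for Zmynd15 with Cxcl16. Art3, with Cxcl10, was below 1 CPM. The sources used here give a directional kit but no strand setting for the counting. Reads of both strands may therefore be in the values of Ccl25 and Ccl27a, which lie well below their partners.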

How the data were processed

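PolyA RNA of 6 libraries, grouped by the tension in their titles, with stiffness from the treatment label, was sequenced from directional NEBNext Ultra II libraries, per the labels' protocols. The authors deposited raw read counts, 1 table of gene symbols a library. Tools named in the submitters' processing notes, with no role or order, are TopHat2 2.0.11, HTSeq 0.6.1p2, FastQC 0.11.2 and edgeR 3.16.5 and 3.8.6, with builds mm10 and hg19. The annotation and the handling of multiply mapped reads were not stated.

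R 4.3.3 and edgeR 4.0.16 were used: filterByExpr (minimum count 10, minimum total 15), TMM factors (0.927 to 1.16), glmQLFit and glmQLFTest on stiffness, and Benjamini-Hochberg adjustment. A standard error is the log2 change divided by the square root of F. In simulated data for 50 kPa against 2 kPa (13155 genes, 200 of them changed), 31.2%, 85.5% and 97% of genes changed 2-, 4- and 8-fold were called. Of the 155 calls in those data, 11 fell on unchanged genes. Simulated counts were drawn independently for each gene and library, without the likeness of high tension replicates 1 and 2 or shifts shared by many genes. These rates therefore need not hold for the real libraries. The rate for the ligands, which varied more between replicates than most genes, was not tested. Alternatives were DESeq2 1.42.0, voom in limma 3.58.1, robust fits, other scalings and filters, a replicate block, each library left out, and high tension replicates 1 and 2 summed. Ligand ratios used counts plus 0.5, for 14 pairs of neighbours above 1 CPM within 200 kb and, chosen after seeing the data, Ccl22 with Ccl17. GENCODE vM21 (GRCm38) gave exon-union lengths for 38 of 39 ligands. Plots used Python 3.11.15 and matplotlib 3.10.9.

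Every ligand averaging 1 CPM or more, and any called, was named, and of the other lists the called genes and up to 3 more each. Members, lists and tests were chosen with earlier results of these data known.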

Additional observations from a re-analysis of the deposited data

How the results depend on the processing

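The count of 22 ligands above 1 CPM was 22 in every other scaling and with each library left out, and 17 when each of the 6 libraries had to pass. The count of ligands called lower (1) was 7 with DESeq2, 8 with the replicate block, and 0 with no low-count filter, with at least 5 CPM in 3 libraries (16 ligands tested, Ccl24 not among them) and with high tension replicates 1 and 2 summed. It ranged from 0 to 1 with each library left out, and no fit of the 16 called a ligand higher. Of 13155 tested genes, 260 were called lower in the main fit, 1251 with DESeq2 and 522 with the replicate block. With the 5 CPM filter, 16 of 10088 tested genes were called lower. The count of other chemokine-system genes called lower (1) was 2 with upper-quartile scaling, total-count scaling and limma-voom, 11 with DESeq2, 9 with the replicate block, 0 with the 5 CPM filter and with the summed libraries, and 0 to 4 with each library left out. DESeq2 also called 2 of them higher, against 8.52% of tested genes.

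No label ties equal replicate numbers to 1 animal or day. Deviations from the group means correlated with r = 0.66, -0.048 and 0.56 for numbers 1, 2 and 3, and 3 of 6 libraries correlated best with their own number, so the main fit had no pairing. The replicate block gave 8 lower ligands, against 522 of 13155 tested genes: Ccl24, Cxcl1, Cxcl2, Cxcl9, Cxcl10, Cxcl11, Ccl22 and Ccl2.

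Of the 22 ligands above 1 CPM with Ccl24 and Ppbp, 20 of 24 kept their sign in all fits run. Ccl3 (0.029) turned to -0.051 with total-count scaling. With each library left out, Ccl3 ranged from -0.20 to 0.57, Ccl9 from -0.097 to 0.50, Ccl4 from -0.72 to 0.43 and Ccl5 from -2.56 to 0.0095. Ccl3 was negative without low tension replicate 1 (-0.17), low tension replicate 2 (-0.20) or high tension replicate 3 (-0.014). Ccl9 was negative without low tension replicate 1 (-0.056) or high tension replicate 3 (-0.097). The causes were not tested. Total-count scaling moved the median log2 change of all genes from -0.028 to -0.16.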
